A study of Mus musculus with 58 samples.

Results

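The 3 beta subunits of the sodium pump analysed here, Atp1b1, Atp1b2 and Atp1b3, are membrane proteins whose transcripts were counted in parvalbumin (PV) cells taken one by one from the ventral subiculum of mice, the part of the hippocampal formation that sends its output to the rest of the brain. They were taken by name, as the listed Na/K ATPase genes, and are 3 of the 25648 genes in the deposited count table; the catalytic alpha subunits are not analysed here. The animals were PV-Cre::Ai9 mice, in which Cre recombinase expressed from the parvalbumin gene switches on a fluorescent reporter, so the cells were chosen by reporter and not by their transcriptome. A patch pipette took up the cytosol of a cell, from which a Nextera XT library was made, so 1 library is 1 cell. The 54 cells labelled Pass comprised 17 female cells at postnatal day (P) 40, 10 female cells at P42, 14 male cells at P35 and 13 male cells at P36, and 4 further cells were labelled Fail. The female cells came from 3 animals and the male cells from 4. No label ties a cell to an animal, so cells of the same sex and age were added up, giving 4 pools that are independent provided that no animal was used at more than 1 age. The test between the sexes therefore measures the spread between pools, and sex cannot be told apart from age. Tests between groups of cells within pools measure how far the group difference varies from pool to pool.

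The sodium pump uses ATP to carry sodium out of the cell and potassium in, and the gradients it keeps set the resting potential and drive most sodium-coupled transport. Each pump joins a catalytic alpha subunit with a glycosylated beta subunit, which the alpha subunit needs to fold and to reach the plasma membrane. In brain, the beta 1 subunit encoded by Atp1b1 is known mainly from neurons. The beta 2 subunit encoded by Atp1b2, also called the adhesion molecule on glia, is known mainly from astrocytes. The beta 3 subunit encoded by Atp1b3 is found in many cell types. Parvalbumin cells fire fast and for long periods, which places a heavy load on the pump.

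On GRCm38 with the GENCODE vM21 annotation, all 3 genes lie on the minus strand. Atp1b1 (ENSMUSG00000026576) spans chromosome 1 from 164437109 to 164458355 with 3081 exon bases, Atp1b2 (ENSMUSG00000041329) spans chromosome 11 from 69599736 to 69605942 with 4085 exon bases, and Atp1b3 (ENSMUSG00000032412) spans chromosome 9 from 96332655 to 96364442 with 2389 exon bases. Promoters of 2 of the 3 members were matched in RefSeq (GRCm38.p6) and are shown because they belong to the most abundant and the second most abundant member. Both run 5′ to 3′ on the gene's strand, from 250 bases before the start to 50 after it. The Atp1b1 window is chr1:164458306-164458605 and the Atp1b3 window is chr9:96364382-96364681, both on the minus strand. Capitals mark GGGCGG or its reverse complement CCGCCC, and CCAAT or its reverse complement ATTGG, searched on both strands overlapping matches included.
Atp1b1: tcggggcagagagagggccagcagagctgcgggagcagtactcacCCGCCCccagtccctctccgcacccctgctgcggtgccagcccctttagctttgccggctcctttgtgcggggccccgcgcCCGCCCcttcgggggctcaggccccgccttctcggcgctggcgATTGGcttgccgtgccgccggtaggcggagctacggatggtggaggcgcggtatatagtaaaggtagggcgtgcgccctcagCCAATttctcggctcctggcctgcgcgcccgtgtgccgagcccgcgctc
Atp1b3: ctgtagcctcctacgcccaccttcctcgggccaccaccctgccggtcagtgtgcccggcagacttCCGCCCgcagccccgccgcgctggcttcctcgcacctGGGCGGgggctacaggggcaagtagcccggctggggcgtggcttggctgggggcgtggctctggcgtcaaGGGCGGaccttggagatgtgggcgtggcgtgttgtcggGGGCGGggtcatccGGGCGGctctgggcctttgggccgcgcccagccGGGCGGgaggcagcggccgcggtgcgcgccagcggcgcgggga
The Atp1b1 window held 2 GGGCGG and 2 CCAAT matches and the Atp1b3 window held 6 GGGCGG and 0 CCAAT matches. Of 32851 RefSeq promoter windows of the same length, 35.7% held GGGCGG and 37.4% held CCAAT. The windows had a GC content of 71% for Atp1b1 and 76% for Atp1b3, above 91.8% and 96.9% of all windows, whose median was 52.7%. They held 31 and 34 CG dinucleotides, against a median of 7.

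The labelled cell type was checked against markers. Each of 8 PV interneuron markers had a count in all 54 cells, with a median CPM (a count scaled to the same total in every library) of 86.9 for Pvalb, the calcium buffer that gives the cells their name, and 3560 for Gad1, which makes GABA. Their summed CPM had a median of 5173, and Gad1 made up 67.8% of the list's CPM over all cells. The 7 markers of other interneuron types summed to a median of 235 CPM. Of these, Cck had a median of 148 CPM, above that of Pvalb, and Sst 7.64 CPM, each with a count in all 54 cells. Detection in every cell therefore does not by itself tell PV cells from other interneurons. The 8 excitatory neuron markers summed to a median of 140 CPM, of which Camk2a, a kinase abundant in excitatory neurons, had 93.3, and 2 of the 8 had a median of 0. Markers of surrounding cells were present in every library and uneven: the summed medians were 802 CPM for 10 astrocyte markers (range 104 to 5171), 500.5 CPM for 10 oligodendrocyte markers (97.7 to 12829) and 254 CPM for 10 microglia markers (40.5 to 12941). Of the astrocyte CPM, 81.7% was from 1 gene, the glycolytic enzyme Aldoc, with a median of 667 CPM. The astrocyte water channel Aqp4 had a median of 0.246 CPM, with a count in 37 of 54 cells, and the glutamate transporter Slc1a2 49.3. The myelin gene Mbp had 283 CPM. Sequencing depth ranged between 2.05 and 52.3 M counts over the Pass cells, and the deepest, female cell 3, held 22.8% of the counts of its pool.

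Atp1b1 was among the most abundant transcripts of these cells, and its level varied little. It had 1305 CPM in the lowest cell, 2559 in the median cell and 3928 in the highest, a mean of 2474 ± 590 (SD, n = 54 cells). Per kilobase of exon, its median of 831 CPM per kb ranked 32nd of 22448 genes with an annotated length. On the log2(CPM + 1) scale its SD over cells was 0.36, and 1.21% of 8166 genes with a median of at least 10 CPM had a smaller one. Evenness goes with abundance, however: of the 52 genes within 2-fold of its median, 23 had a smaller SD. So the even level of Atp1b1 was ordinary for a transcript of its abundance.

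Counts of Atp1b1 carry an uncertainty from its neighbour. Nme7, a nucleoside diphosphate kinase family gene on the plus strand (chr1:164304121-164437725), ends inside the last part of Atp1b1, and their exons share 575 bases, 18.7% of the Atp1b1 exon bases. Nextera XT does not mark strand, so reads from the shared bases cannot be told apart. The deposited Nme7 count was 11.7% of the Atp1b1 count in the lowest cell, 15.7% in the median cell and 40.3% in the highest. Atp1b2 and Atp1b3 shared 0 exon bases with another annotated gene.

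Atp1b3 was second in abundance. It had 23.8 CPM in the lowest cell, 109.5 in the median cell and 224 in the highest, with at least 10 CPM in 54 of 54 cells. Its SD on the log2(CPM + 1) scale was 0.74, and 722 of 3083 genes within 2-fold of its median had a smaller one. Male cell 12 was highest and also had the highest summed level of the 10 oligodendrocyte markers, 12829 CPM against a median of 500.5 CPM over all cells. The second highest, male cell 29 with 218 CPM, had 1358 CPM of those markers. Other cells rich in them varied in Atp1b3. Male cells 7, 19 and 27 had 8874, 7916 and 5543 CPM of those markers. Their Atp1b3 was 102.5, 65.9 and 43.9 CPM, below the median cell. The next richest, male cell 24 with 3616 CPM of those markers, had 124.6 CPM of Atp1b3, above the median cell.

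Atp1b2 was the least abundant and by far the most uneven of the 3. It had 0.118 CPM, from 2 counts, in female cell 28, a median of 17.4 CPM, and 161 CPM, from 1619 counts, in male cell 5. At least 1 count was seen in 54 of 54 cells, and at least 10 CPM in 35 of 54 (64.8%). Its SD on the log2(CPM + 1) scale was 2.02, and 2043 of 2895 genes within 2-fold of its median had a smaller one. The range was wide within each pool. The lowest and highest cells had 0.118 and 141.5 CPM in female P40, 0.666 and 118 in female P42, and 0.603 and 161 in male P35. In male P36 they had 0.309 and 43.2 CPM, so its highest cell lay well below those of the other pools.

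**Figure D1:**
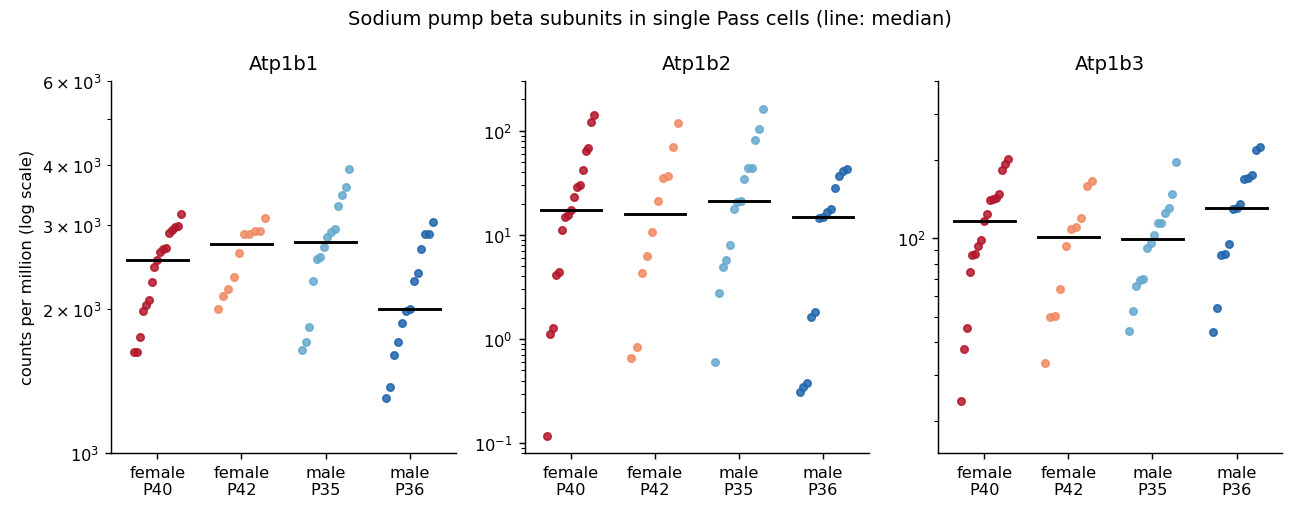
CPM on log axes of Atp1b1, Atp1b2 and Atp1b3 in each of 54 Pass cells (points, sorted within a pool) of the female P40, female P42, male P35 and male P36 pools, with the pool median as a line. Atp1b1 stays between 1305 and 3928 CPM, whereas Atp1b2 runs from 0.118 to 161 CPM.

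Set side by side per kilobase of exon, the neuronal subunit dominated in every cell. Median levels were 831 CPM per kb for Atp1b1, 45.8 for Atp1b3 and 4.25 for Atp1b2. Atp1b1 exceeded Atp1b3 in 54 of 54 cells, by 4.76-fold in the closest cell and 17.6-fold in the median cell, and exceeded Atp1b2 in 54 of 54 cells, by 16.4-fold in the closest. Atp1b3 exceeded Atp1b2 in 53 of 54 cells (98.1%). The exception was female cell 3, with a ratio of Atp1b3 to Atp1b2 of 0.64, the cell with the lowest Atp1b3. The order Atp1b1, Atp1b3, Atp1b2 therefore held with few overlaps between neighbours. As a share of the 3 per unit length, Atp1b1 had 82.6% to 97.8% (median 94.0%), Atp1b3 1.44% to 17.4% (median 5.36%) and Atp1b2 0.0033% to 5.43% (median 0.518%).

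**Figure D2:**
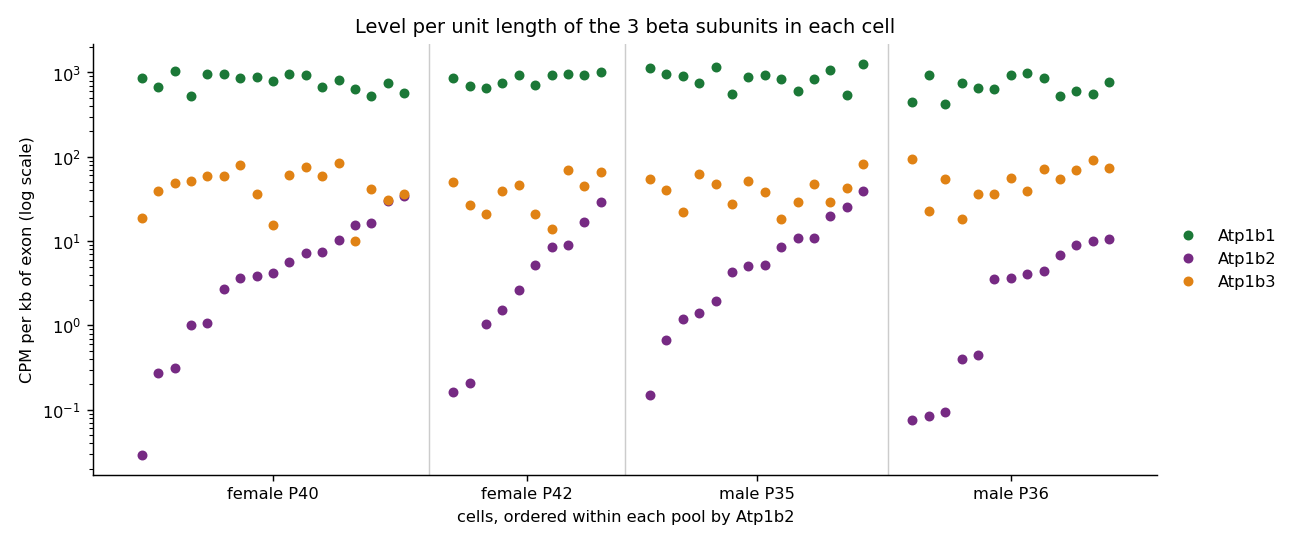
CPM per kb of exon (log axis) of Atp1b1, Atp1b2 and Atp1b3 in every Pass cell, cells ordered by Atp1b2 within the female P40, female P42, male P35 and male P36 pools. Atp1b1 forms a flat band near 831, Atp1b3 lies near 45.8, and Atp1b2 climbs across the cells of each pool and passes Atp1b3 in 1 cell.

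The glial subunit was read against glial markers. Across the 54 cells, the Spearman correlation (rho) of Atp1b2 with the summed CPM of 10 astrocyte markers was 0.25, and it was positive in each pool (0.17 to 0.45). Aldoc, a glycolytic enzyme listed as an astrocyte marker, made up 81.7% of that sum, had a median of 667 CPM and had a rho of 0.11 with Atp1b2. With the sum of the other 9 markers, rho was 0.57, and 0.69 in female P40, 0.60 in female P42, 0.54 in male P35 and 0.36 in male P36. Cells of a pool share animals and preparation, so these correlations are descriptions.

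With the mean log2(CPM + 1) of all 10 markers, in which each marker weighs the same, rho was 0.54 over all cells, 0.63 in female P40, 0.55 in female P42, 0.38 in male P35 and 0.66 in male P36, and 0.50 without the 2 cells farthest from the median of the markers. The mean of logs and the list without Aldoc were both chosen after the data were seen. For comparison, of 8162 genes off the list with a median of at least 10 CPM, 0.0123% had a higher rho with this mean. Atp1b2 itself was among these genes, and their median rho was near 0 (-0.00046). The comparison was made for the mean of logs and not for the sum. The cut at 10 CPM left out genes with medians as low as those of Aqp4 (0.246 CPM) and Gja1 (0.968 CPM). Each of the 10 markers correlated positively with Atp1b2, by 0.0075 to 0.47. The largest were 0.47 for Slc1a2 and 0.42 for the gap junction gene Gja1. As means of logs, rho of Atp1b2 was 0.24 with excitatory neuron markers and -0.16 with PV interneuron markers. It was 0.28 with oligodendrocyte precursor markers and 0.17 with microglia markers. The astrocyte mean had a rho of -0.0013 with total counts and 0.15 with the number of genes detected, and Atp1b2 had 0.21 and 0.33.

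The ends of the marker range overlapped in Atp1b2. In the 13 cells highest for the astrocyte mean, Atp1b2 was 11.1 to 141.5 CPM with a median of 34.5, and 13 of 13 reached 10 CPM. In the 13 cells lowest for it, Atp1b2 was 0.118 to 161 CPM with a median of 1.62, and 2 of 13 reached 10 CPM. By summed CPM, 11 of the 13 highest cells (median 21.2 CPM) and 5 of the 13 lowest (median 5.70 CPM) reached 10 CPM.

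Single cells at the top of the range differed in their markers. Female cell 21, with 141.5 CPM of Atp1b2, had each of the 10 astrocyte markers at 10 CPM or more, Gja1 at 309 CPM among them, and also 12941 CPM of microglia markers. Male cell 5, the highest for Atp1b2 at 161 CPM, had 1.49 CPM of Aqp4 and 0 CPM of Gja1, Aldh1l1 and Gjb6. It also had 99.4 CPM of Slc1a2, 477 of Aldoc and 16.4 of S100b. Of its 10 astrocyte markers, 7 had a count and 3 reached 10 CPM. That cell carried 7195 CPM of markers of other interneuron types. RNA of the patched neuron and RNA drawn in from glia cannot be told apart in these libraries.

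The relations of the other subunits to markers depended in part on how the markers were combined. Atp1b1 had a rho of -0.45 with the excitatory neuron markers, both as a sum (-0.68 to -0.56 in single pools) and as a mean of logs (-0.75 to -0.44). With the PV interneuron markers its rho was 0.41 both ways, but in female P42 it was 0.36 with the sum and -0.49 with the mean, while the other 3 pools were positive with both. Among 8164 genes outside the excitatory list, Atp1b1 included, 99.7% had a higher rho with the excitatory mean than Atp1b1. Among 8158 genes outside the PV list, Atp1b1 again included, 0.772% had a higher rho with the PV mean. With the oligodendrocyte markers the rho of Atp1b1 was -0.31 for the sum and -0.30 for the mean.

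For Atp1b3 the direction with astrocyte markers turned with the measure: rho was -0.20 with the sum, negative in 4 of 4 pools, 0.13 with the mean and 0.17 with the sum without Aldoc. Atp1b1 also turned, with 0.092 for the sum and -0.055 for the mean. With the oligodendrocyte markers the rho of Atp1b3 was 0.18 for the sum and 0.11 for the mean, changing sign between pools in both. With 7 markers of other interneuron types it was 0.31 for the sum, positive in 4 of 4 pools, and 0.29 for the mean, negative in female P42 (-0.10).

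Between members, rho over all cells was -0.018 for Atp1b1 and Atp1b2, 0.12 for Atp1b1 and Atp1b3, and 0.12 for Atp1b2 and Atp1b3, but single pools differed. For Atp1b1 and Atp1b2 it was -0.44 in female P40, 0.73 in female P42, -0.16 in male P35 and 0.088 in male P36. For Atp1b1 and Atp1b3 it was 0.41, 0.58 and 0.33 in the first 3 of these pools and -0.34 in male P36. For Atp1b2 and Atp1b3 it ran from -0.066 to 0.45.

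**Figure D3:**
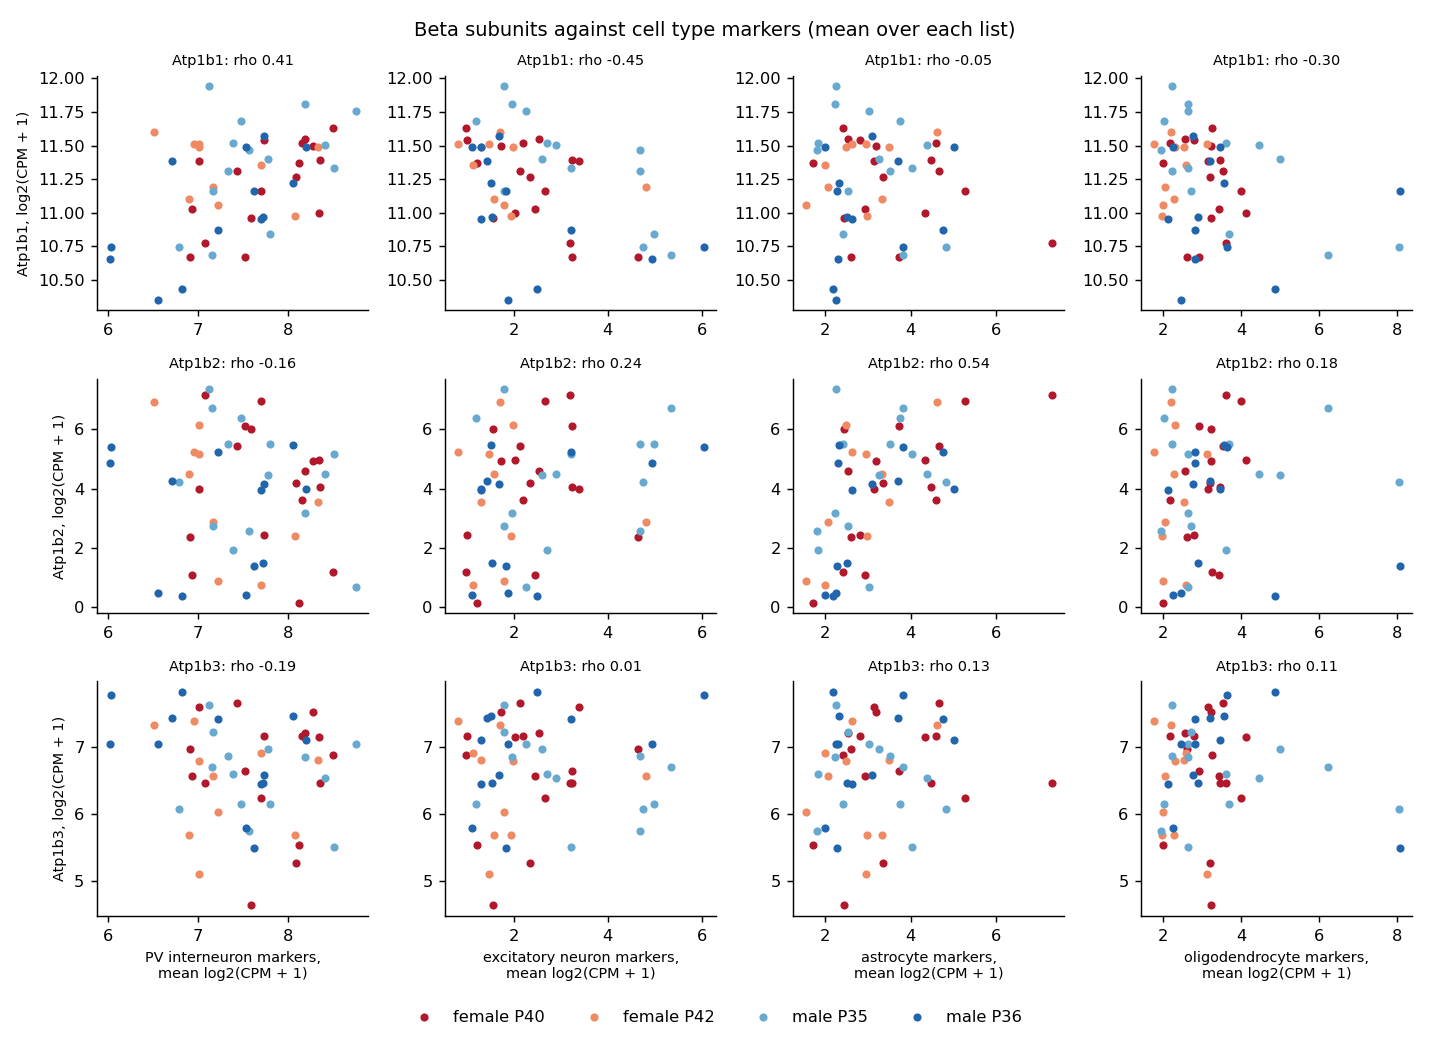
Log2(CPM + 1) of Atp1b1 (top), Atp1b2 (middle) and Atp1b3 (bottom) against the mean log2(CPM + 1) of PV interneuron, excitatory neuron, astrocyte and oligodendrocyte markers in 54 Pass cells, coloured by pool, with rho over all cells above each panel. Atp1b2 increases with astrocyte markers (rho 0.54) and Atp1b1 decreases with excitatory neuron markers (rho -0.45).

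The genes whose level followed each member most closely were found among 8165 genes with a median of at least 10 CPM over the 54 cells. For Atp1b1 they were Tmx2 (rho 0.70), the lysosomal protease gene Ctsb (0.69), Atp6ap2 (0.68), an accessory protein of the vacuolar proton pump, Nme7 (0.68) and Tecr (0.67), against a 99th percentile of 0.43 over all genes. Nme7 is the overlapping neighbour described above. For Atp1b2 they were Ybx1 (0.56), the calcium channel beta subunit gene Cacnb3 (0.56), Rpp30 (0.52), Marcksl1 (0.52) and Pgap2 (0.51), with a 99th percentile of 0.37. Within pools the rho of Pgap2 ran from -0.05 to 0.83. For Atp1b3 the best match, an unnamed gene with the identifier ENSMUSG00000110142, reached 0.50, followed by Ndst1 (0.47), Smarca5 (0.47), Ddost (0.45) and 1700003E16Rik (0.45), with a 99th percentile of 0.31.

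The series title names sex-dependent inhibition, and the first comparison was female against male pools. Atp1b1 had 2354 and 2725 CPM in the female P40 and P42 pools, against 2748 and 2196 in the male P35 and P36 pools, on the TMM-scaled total. Atp1b2 had 40.6 and 37.3 CPM in the female pools, against 40.6 and 18.9 in the male pools. Atp1b3 had 94.9 and 106.0 CPM in the female pools, against 88.4 and 142 in the male pools. The sexes overlapped for each of the 3, while 33.9% of 14933 genes tested had pools that did not overlap. The male P36 pool had the lowest Atp1b1 and Atp1b2 and the highest Atp1b3.

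In edgeR's quasi-likelihood F test, with p-values adjusted over all genes by the Benjamini-Hochberg method, 0 of 3 members differed between the sexes, with 0.0134% of all genes called (2 of 14933, both Y-linked genes lower in female pools). The log2 difference, female minus male, was 0.04 ± 0.17 (SE) for Atp1b1, with a 95% interval of -0.35 to 0.43 and an edgeR adjusted p of 0.999. It was 0.39 ± 0.44 for Atp1b2, with an interval of -0.63 to 1.41 and an edgeR adjusted p of 0.993. It was -0.20 ± 0.27 for Atp1b3, with an interval of -0.83 to 0.44 and an edgeR adjusted p of 0.994. In this fit, the interval for Atp1b1 runs from 0.78-fold to 1.35-fold in female relative to male pools. Without the male P36 pool the signs turned, to -0.11 for Atp1b1, -0.06 for Atp1b2 and 0.19 for Atp1b3. Without the male P35 pool the difference was 1.04 for Atp1b2.

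Few cells carried the pool values of Atp1b2. Female cell 3 gave 35.5% of its counts in female P40, female cell 18 gave 42.8% in female P42, male cell 6 gave 32.1% in male P35 and male cell 11 gave 33.6% in male P36. For Atp1b1 the top cell of a pool gave 15.8% to 19.1%. Median summed astrocyte markers per cell were 1150 and 795 CPM in female P40 and P42, against 874 and 701.5 CPM in male P35 and P36. Their ranges were 336 to 5171 and 104 to 1632 CPM in the female pools, against 388 to 1681 and 260 to 1601 CPM in the male pools, and 10 of 10 of these markers had counts. Aldoc made up 81.7% of the summed astrocyte markers over all cells and had a rho of 0.11 with Atp1b2, so these pool levels mostly reflect Aldoc. The part of the astrocyte markers in the Atp1b2 difference was not tested.

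The share of each subunit per unit length was compared the same way. Atp1b1 made up 93.9% and 94.3% in the female P40 and P42 pools, against 95.0% and 91.8% in the male P35 and P36 pools. Atp1b3 made up 4.88% and 4.73% in the female pools, against 3.94% and 7.64% in the male pools, and Atp1b2 made up 1.22% and 0.974%, against 1.06% and 0.597%. The female minus male differences in mean share were 0.713 percentage points for Atp1b1, 0.270 for Atp1b2 and -0.983 for Atp1b3. Exact two-sided permutation p-values were 1, 0.667 and 1, and 0.333 is the smallest that 4 pools allow.

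Each cell also had membrane values labelled vrest, rm and cm, read here as resting potential, membrane resistance and membrane capacitance, whose units the labels do not give. Each was present for 49 of the 54 Pass cells. A larger capacitance means a larger membrane area, and so a larger surface over which pumps can be spread. Across cells, rho of Atp1b1 with cm was -0.23, negative in 3 of 4 pools (-0.47 to 0.10). The correlation was -0.12 for Atp1b2 and -0.086 for Atp1b3 with cm, from -0.63 to 0.21 and from -0.15 to 0.04 in single pools. With rm, rho was 0.26 for Atp1b1, positive in 4 of 4 pools (0.08 to 0.47), 0.12 for Atp1b2 and 0.025 for Atp1b3.

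To test capacitance over pools, cells above the median cm of their pool were summed against the remaining cells. Atp1b1 had 2276, 2402, 2319 and 2319 CPM in the large cm groups of female P40, female P42, male P35 and male P36, against 2621, 2873, 2779 and 2058 CPM in the small cm groups. The large group was lower in 3 of 4 pools and higher in male P36. By edgeR's quasi-likelihood test with the pool as a block, the log2 difference, large minus small, was -0.14 ± 0.12 (SE) with a 95% interval of -0.40 to 0.12 and an adjusted p of 1. Across all genes 0.00716% were called (1 of 13970, Vip, a neuropeptide of another interneuron class), and 13.1% had 1 sign in all 4 pools. Weighting cells equally, with limma on the mean log2(CPM + 1), the Atp1b1 difference was -0.22 with a limma adjusted p of 0.854.

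Atp1b2 had 68.7, 8.73, 21.4 and 21.1 CPM in the large cm groups, against 31.6, 57.3, 25.5 and 16.9 CPM in the small cm groups, in the same order of pools. It was higher in 2 pools and lower in 2. The log2 difference was -0.30 ± 0.63 (SE), with a 95% interval of -1.73 to 1.14. Atp1b3 had 109.2, 77.2, 91.8 and 126.5 CPM in the large cm groups, against 93.3, 114.8, 78.8 and 150.9 CPM in the small cm groups. Its log2 difference was -0.09 ± 0.22 (SE), with a 95% interval of -0.58 to 0.39, and both genes had an edgeR adjusted p of 1. Without female P42 both differences changed sign, to 0.39 for Atp1b2 and 0.06 for Atp1b3.

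The pump adds an outward current, so the resting potential was the third comparison. Over cells, rho with vrest was -0.024 for Atp1b1, -0.060 for Atp1b2 and -0.12 for Atp1b3, and in single pools it ran from -0.38 to 0.38 for Atp1b1, from -0.44 to 0.28 for Atp1b2 and from -0.34 to 0.19 for Atp1b3. Cells above the median vrest of their pool (the depolarized group) were summed against the rest (the hyperpolarized group). Because of tied values, the depolarized group of female P42 was 1 cell against 6. In male P36 the split by vrest also separated the cells by size: cm was 24 to 44 in the depolarized group, against 52 to 102 in the hyperpolarized group.

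Atp1b1 had 2241, 2462, 2774 and 2204 CPM in the depolarized groups of female P40, female P42, male P35 and male P36, against 2749, 2605, 2612 and 2080 CPM in the hyperpolarized groups. Both female pools were lower and both male pools higher in the depolarized group. The difference of that change between the sexes was itself tested by an interaction term in edgeR and was -0.27 ± 0.33 (SE) on the log2 scale, with an unadjusted p of 0.434 and an edgeR adjusted p of 0.9998. The log2 difference over all pools, depolarized minus hyperpolarized, was -0.05 ± 0.15 (SE), with a 95% interval of -0.40 to 0.30.

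Atp1b3 had 79.5, 74.1, 72.0 and 146.8 CPM in the depolarized groups, against 121, 110.3, 97.4 and 131 CPM in the hyperpolarized groups. It was lower in the depolarized group in 3 of 4 pools. The log2 difference was -0.36 ± 0.26 (SE), with a 95% interval of -0.95 to 0.23, -0.22 without female cell 3 and -0.55 without male P36. Atp1b2 had 51.3, 0.972, 22.6 and 22.5 CPM in the depolarized groups, against 24.3, 30.8, 53.0 and 15.5 CPM in the hyperpolarized groups. It was higher in 2 pools and lower in 2, with the lowest value in the group that held 1 cell. Its log2 difference was -0.82 ± 1.07 (SE), with a 95% interval of -3.25 to 1.62, and 0.15 without female P42. Each member had an edgeR adjusted p of 0.999. Across all genes 0% were called by edgeR (0 of 13956, with 335 at an unadjusted p under 0.05 and 58 called by DESeq2), and 12.3% had 1 sign in all 4 pools; the median log2 difference of all genes was -0.09.

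**Figure D4:**
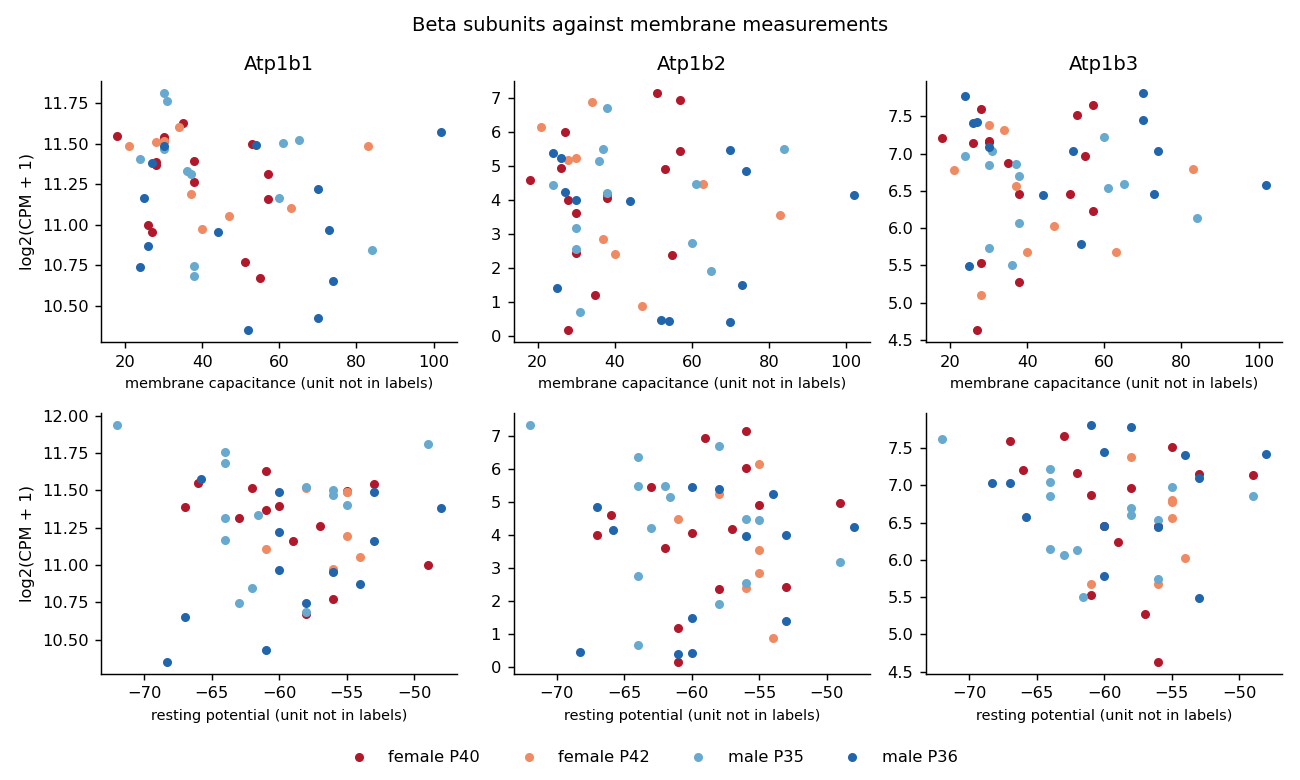
Log2(CPM + 1) of Atp1b1, Atp1b2 and Atp1b3 (left to right) against labelled cm (top) and vrest (bottom), units not given in the labels, for Pass cells with each value, coloured by pool. The points form broad clouds; the rho with cm is -0.23 for Atp1b1, -0.12 for Atp1b2 and -0.086 for Atp1b3.

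**Figure D5:**
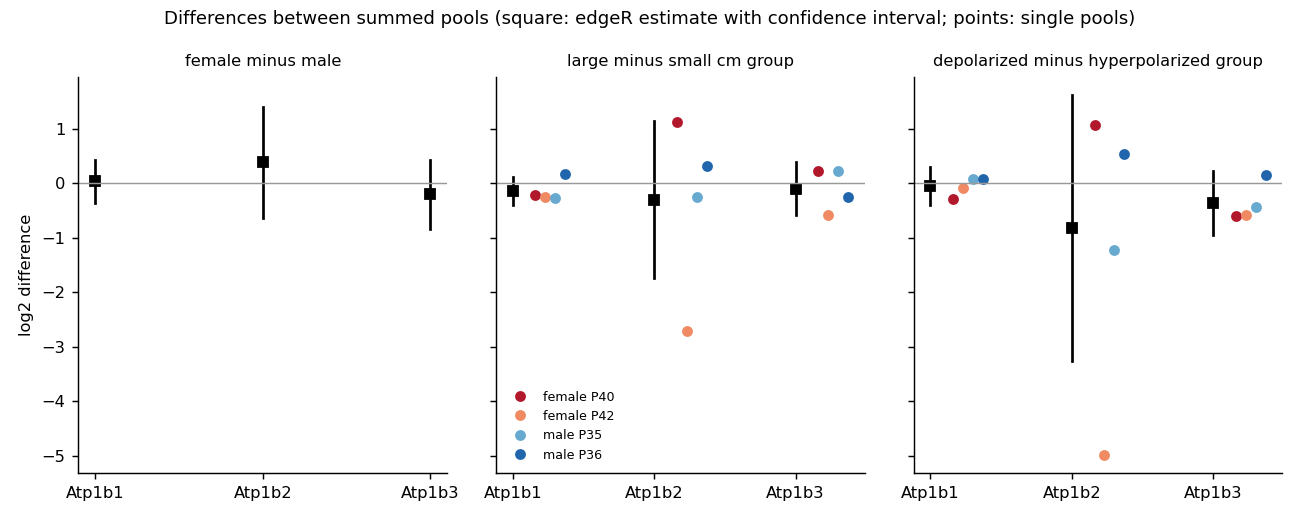
Log2 differences of the 3 beta subunits, female minus male, large minus small cm group, and depolarized minus hyperpolarized group: squares are edgeR estimates with 95% intervals, and points are single pools. Every interval includes 0, and the widest belong to Atp1b2, whose pools run from -4.99 to 1.08 for resting potential.

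The subunit shares were also compared between the groups split by cm and by vrest. With cm, the large minus small difference was 0.0215 percentage points for Atp1b1, 0.0396 for Atp1b2 and -0.0612 for Atp1b3, with exact two-sided sign-flip permutation p-values of 1, 0.75 and 1. With vrest, the depolarized minus hyperpolarized difference was 0.957 points for Atp1b1, -0.118 for Atp1b2 and -0.839 for Atp1b3, with exact p-values of 0.375, 1 and 0.25. The smallest p that 4 pools allow in this test is 0.125.

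Genes that work with the pump were present to very different degrees. Of 11 listed pump regulators, which include the FXYD peptides that tune the pump and the NKAIN proteins that bind its beta 1 subunit, the highest medians were 4.05 CPM for Fxyd7 and 4.00 CPM for Nkain4. Atp1b4, a beta-like gene, had a count in 2 cells. Of 16 listed transporters, most but not all driven by the sodium gradient, Slc24a2, a sodium, calcium and potassium exchanger, had a median of 176 CPM. Of 9 other ion pumps, the endoplasmic reticulum calcium pump Atp2a2 had a median of 324 CPM and the plasma membrane calcium pump Atp2b2 had 272 CPM, while the gastric proton pump genes Atp4a and Atp4b had a median of 0.

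None of these lists held a gene called by edgeR in any of the 3 comparisons. For the sexes, 10 of 11 pump regulators, 16 of 16 transporters and 5 of 9 other pumps were tested, 0 were called in either direction, and the median log2 differences were 0.17, -0.10 and -0.07, beside 0.00 over all genes. For cm, the medians were 0.52 over 9 regulators, 0.13 over 16 transporters and -0.21 over 5 other pumps, beside -0.03 over all genes. For vrest, they were 0.03 over 7 regulators, -0.16 over 16 transporters and -0.03 over 5 other pumps. Atp2a2 differed by -0.00 ± 0.23 (SE, log2) between the sexes, by -0.21 ± 0.14 with cm and by -0.16 ± 0.24 with vrest, and Fxyd7, at low counts, by -0.51 ± 0.69, -0.91 ± 0.86 and -0.11 ± 1.69 in the same order.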

How the data were processed

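The labels' protocols name patch pipette harvests and a Nextera XT kit. The submitters' processing notes name STAR, edgeR and the build GRCm38. The sources used here give no version, annotation, counting tool or strand setting. The authors deposited raw counts per gene, whole numbers without normalization, for 25648 genes and 58 cells. The deposited normalized and isoform tables were not used, and 0 columns were left unmatched. The members and gene lists were chosen with earlier results of these data known.

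CPM of a cell refer to its own total count. Pass cells were added up by sex and age (4 pools), and within a pool into the cells above and those at or below its median cm or vrest. Genes with a count in at least 10 Pass cells that passed filterByExpr were tested with edgeR 4.0.16 (R 4.3.3), quasi-likelihood F test, TMM, two-sided, Benjamini-Hochberg adjusted p under 0.05, with the pool as a block for the cm and vrest groups. Standard errors are the absolute log2 difference over the square root of F. Shares used exact permutation tests. Correlations used log2(CPM + 1). Lengths are GENCODE vM21 exon unions, matched for 22448 genes. DESeq2 1.42.0, limma 3.58.1, RLE factors, filters, thinning every cell to 2.05 M counts, pools or cells left out, splits into the outer tertiles, other lengths, a pseudocount of 0.1, equal-weight marker means and astrocyte markers without Aldoc were alternatives. The fits were tested on simulated data.

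Named genes were the members, the 2 list members with the highest median CPM (a transporter is not reported here) and any called, and the 5 genes with the highest rho with each member; Nme7 was also named for its overlap, and the markers, Atp1b4, Atp4a and Atp4b as examples after their values were seen. The 4 Fail cells were left out of every comparison. Depth was 2.05 to 52.3 M counts per Pass cell, which limits values near 1 CPM.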

Additional observations from a re-analysis of the deposited data

Results flagged for a closer look

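The 4 cells that the submitters labelled Fail, in no comparison above, also held the 3 subunits. Their summed counts were 18831 for Atp1b1, 45 for Atp1b2 and 788 for Atp1b3, each above the cut of 3 counts set for listing them here. Atp1b1 had 2287 to 3589 CPM in them, within the range of the Pass cells, and Atp1b2 had 0.197 to 55.3 CPM. Atp1b3 had 444.3 CPM in male cell 4, far from the 75.2 to 82.5 CPM of the other 3 Fail cells and above the highest Pass cell (224 CPM); Dixon's test singled it out, as its gap to the next cell was 0.98 of the range. Male cell 4 also held 22061 CPM of oligodendrocyte markers, above the highest Pass cell (12829 CPM), and 1068 CPM of oligodendrocyte precursor markers, from 0.596 M counts. The other Fail cells had 287 to 11813 CPM of oligodendrocyte markers, and the part of these markers in the Atp1b3 level was not tested. Chance singles out about 1 in 20 groups per gene in this test, and each group was tested for 3 genes. The same test found no outlying cell in the female P42 pool of 10 cells for any of the 3 genes. The larger pools were not put to this test.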

How the results depend on the processing

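No member was called under any alternative run. Genes called between the sexes were 2 in the main test, 186 by DESeq2, 111 with no filter on low counts and 0 to 21 with a pool or female cell 3 left out. Genes called with cm were 1 in the main test, 167 by DESeq2, 0 by limma, for the outer tertiles and with no replicate block, and 0 to 1 with a pool or cell left out; with vrest they were 0, 58 by DESeq2 and 0 to 1. The causes were not tested.

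Left out in turn, pools or female cell 3 gave sex log2 differences of -0.11 to 0.21 (Atp1b1), -0.059 to 1.04 (Atp1b2) and -0.50 to 0.19 (Atp1b3). For cm they gave -0.83 to 0.39 (Atp1b2) and -0.22 to 0.061 (Atp1b3), and for vrest -0.10 to 0.031 (Atp1b1), -1.66 to 0.15 (Atp1b2) and -0.55 to -0.22 (Atp1b3). For the outer tertiles, signs turned to 0.16 (Atp1b2, cm), 0.11 (Atp1b3, cm) and 0.014 (Atp1b2, vrest). The block, which was the pool, turned no sign: without it the cm differences were -0.15, -0.13 and -0.11 and the vrest differences -0.05, -0.34 and -0.30 for Atp1b1, Atp1b2 and Atp1b3.

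Share differences, in points, ran with pools left out from -0.907 to 2.33 (Atp1b1, sex), -2.83 to 0.868 (Atp1b3, sex), -0.640 to 0.892 (Atp1b1, cm), -0.360 to 0.435 (Atp1b2, cm), -0.533 to 0.605 (Atp1b3, cm) and -0.490 to 0.126 (Atp1b2, vrest). As the mean of the cells' own shares they turned to -0.314 (Atp1b1, cm), 0.120 (Atp1b3, cm) and 0.0141 (Atp1b2, vrest).

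Within single pools, Pearson r moved beyond the spread over pools with vrest to -0.41 (Atp1b1, female P40), 0.43 (Atp1b1, male P36), -0.43 (Atp1b2, female P42) and 0.20 (Atp1b3, female P42). With rm it was 0.0871 (Atp1b1, male P36), 0.53 (Atp1b2, female P42), -0.36 (Atp1b2, male P35) and 0.29 (Atp1b3, female P42). With cm it was 0.0103 (Atp1b1, male P36), 0.35 (Atp1b2, female P40), 0.15 (Atp1b3, female P40) and -0.0725 (Atp1b3, female P42), and Spearman rho for Atp1b3 was -0.0863 against r of 0.04. Median levels were within 1 SD on TMM-scaled totals. Depth limits values near 1 CPM, where Atp1b2 rests on as few as 2 counts.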
